A study of Mus musculus with 20 samples.

Results

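Brown fat of mice fed a high fat diet with a nori extract was compared with brown fat of mice fed a low fat control diet. The comparison used 2 of the study's 20 arrays, and each array carried RNA pooled from 7 mice. The extract diet (HFD+Ex) drew 60% of its energy from fat, and the extract, made from nori, an edible red alga, was 2% of its weight. The control diet (CD) drew 10% of its energy from fat. All mice were male C57BL/6J, began their diets at 5 weeks of age and ate them for 13 weeks. Brown fat of 2 further groups is given beside the comparison: mice on the plain high fat diet (HFD), and mice whose high fat feed contained porphyran, a sulfated polysaccharide of nori, at 2% of its weight (HFD+PP). HFD+Ex and CD differ both in fat content and in the extract, so the comparison does not separate fat from extract. With 1 array for each diet there was no replicate check, no test could be made and no p-value is given. "Higher" and "lower" describe these 2 pools only.

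Brown fat burns fatty acids and glucose to make heat. Uncoupling protein 1 (Ucp1) lets protons return across the inner mitochondrial membrane without making ATP, and sympathetic nerves switch the process on through the beta-3 adrenergic receptor. Brown adipocytes also make fatty acids from glucose through ATP citrate lyase, acetyl-CoA carboxylase and fatty acid synthase. Genes of that pathway are driven by the transcription factors SREBP1 and ChREBP, which respond to insulin and to carbohydrate. Overfeeding with fat is known to enlarge the lipid droplets of brown adipocytes and to bring in macrophages.

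The labelled tissue was checked against brown fat markers. The level of a gene is its log2 signal minus the 75th percentile of its array, so a level of 0 is that percentile. Ucp1 was at 9.97 on the CD array and 10.15 on the HFD+Ex array, and at −3.21 and −3.40 on the mesenteric white fat arrays of the same diets. Cidea, a lipid droplet protein rich in brown fat, was at 10.27 and 10.01, and in mesenteric fat at 3.93 and 2.15. Ebf2, a transcription factor of brown fat identity, was at 2.50 and 2.41, and in mesenteric fat at 0.17 and 0.67. Ucp1, Cidea and Ebf2 thus stood above the 75th percentile and above their mesenteric levels on both brown fat arrays. Other identity markers were dimmer. Prdm16 was at 0.70 and 0.54, and Zic1 at −1.9 and −2.0. Lhx8 was at −0.76 and −0.78, close to its mesenteric levels of −1.38 and −0.94.

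Of 21154 genes on the array, 15872 were measured, which means that the signal cleared background clearly on 1 or both arrays. Of those, 13585 were well above background on both arrays, and 547 had no fold because they lay at or under the detection floor. A difference is the HFD+Ex level minus the CD level, and it was called when at least 2-fold, that is 1 log2. By that rule 428 genes (2.7%) were higher and 381 (2.4%) lower, or 5.1% in either direction. Such shares over all measured genes are the background of the list counts below. A count of 0 in a short list lies near them. Among genes well above background on both arrays, 194 were higher and 239 lower. The remaining calls, 234 higher and 142 lower, are bounds, in which the dimmer array lay at background. Their difference was taken against that array's floor, or against the probe's own signal there if higher. The median of all genes was −0.01.

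The 2 arrays did not detect equally well. On the CD array 50.7% of spots were well above background, against 63.9% on the HFD+Ex array, with 56.5% for HFD and 55.0% for HFD+PP. Of the measured genes, 2144 were above background on the HFD+Ex array only and 143 on the CD array only. The HFD+Ex array lay on another slide than the other 3 brown fat arrays, so slide and diet cannot be told apart. The split of calls moved with the scaling. The series matrix values of the authors gave 692 higher and 304 lower (69.5% higher, against 52.9% here) and shifted the median of all genes to 0.16 log2. Quantile normalization gave 308 and 415 (42.6% higher), and normexp background correction gave 68 and 132 (34.0% higher). No spot on either array was saturated. Replicate spots within an array put the technical SD of a difference at 0.10 log2, which leaves out all variation between mice and pools. The threshold fell in a dense part of the range, with 201 genes at a difference of 0.9 to 1 log2 in size and 150 at 1 to 1.1.

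**Figure D1:**
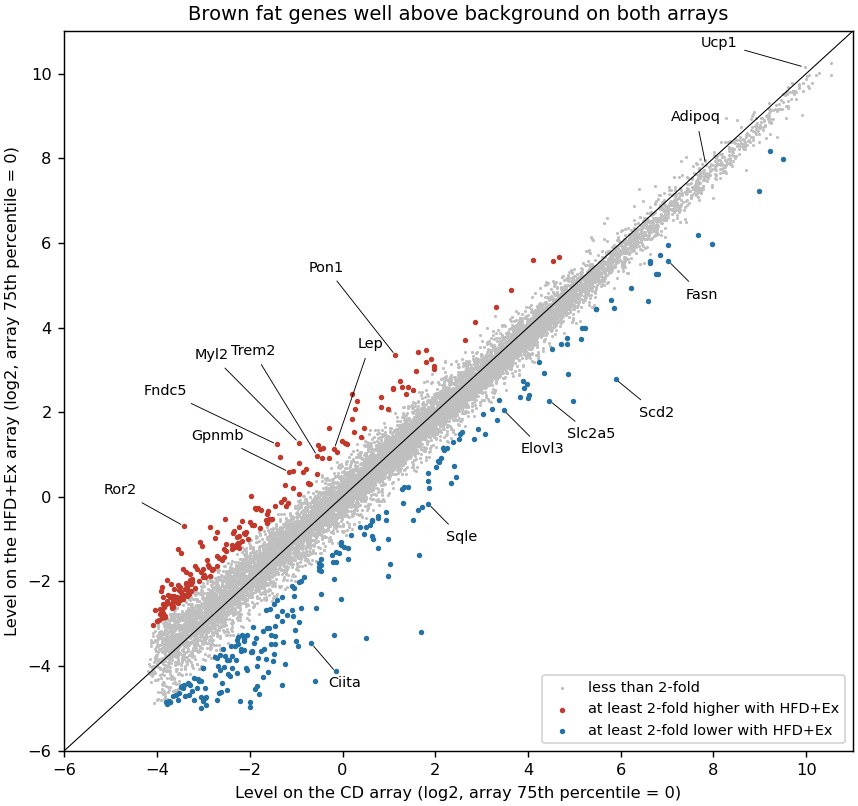
Level of each gene on the CD array (x axis) against the HFD+Ex array (y axis), in log2 with the array's 75th percentile at 0, for the 13585 genes well above background on both arrays; the line marks equal levels. The 194 genes in red were at least 2-fold higher with HFD+Ex and the 239 in blue at least 2-fold lower. Scd2, Fasn and Sqle lie below the line at medium to high levels, and Ucp1 and Adipoq lie on it.

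The genes of fatty acid synthesis were lower in the HFD+Ex pool. Of 20 measured members 13 were at least 2-fold lower and 0 higher (background 2.4% and 2.7%), with a median of −1.42. The 19 members with a difference all lay below 0, from −3.11 to −0.34. Fads2, the delta-6 desaturase, had no fold because it lay near the floor on both arrays. These counts kept 12 or 13 lower and 0 higher under each scaling, filter and probe rule tried.

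Acly makes the acetyl-CoA that fatty acids are built from. Its level was 8.97 with CD, 7.45 with HFD, 6.91 with HFD+PP and 7.22 with HFD+Ex, a difference of −1.75 or 3.36-fold lower than CD. Acss2, which makes acetyl-CoA from acetate, was at 6.58, 4.89, 4.53 and 4.62 in the same order, a difference of −1.96. Slc25a1, the carrier that exports citrate from mitochondria, was at 6.77, 5.62, 5.04 and 5.26, a difference of −1.50. On each of these genes the CD array stood above the 3 high fat arrays.

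Acaca, which makes malonyl-CoA, differed by −1.04 from a CD level of 9.22. Fasn, the fatty acid synthase, was at 7.03 with CD, 5.50 with HFD, 5.10 with HFD+PP and 5.57 with HFD+Ex, a difference of −1.45 or 2.74-fold lower. Me1, malic enzyme, which supplies NADPH, was at 7.96, 6.23, 5.70 and 5.97, a difference of −1.99 or 3.97-fold lower. The 3 probes of Me1 lay between −2.27 and −1.99, the 3 of Acaca between −1.63 and −1.04, and the 2 of Acly between −1.89 and −1.75. For these 3 enzymes every probe above background was lower.

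The elongation and desaturation steps held the widest difference of the list. Scd2, a stearoyl-CoA desaturase that puts a double bond into saturated fatty acids, was at 5.89 with CD, 4.15 with HFD, 3.09 with HFD+PP and 2.78 with HFD+Ex. Its difference of −3.11 is 8.62-fold lower, and HFD+Ex was the lowest of the 4 brown fat arrays. Scd1, the main desaturase of fat, was at 9.49, 8.66, 7.99 and 7.99, a difference of −1.51. Scd3, a close relative outside the list, was at 4.97, 3.27, 2.26 and 2.27, a difference of −2.70. A second Scd3 probe differed by 0.22, so the Scd3 value rests on 1 probe, and probes of these related genes may share signal. Elovl6, which lengthens palmitate, differed by −1.49 from a CD level of 7.67. Acsl5, which activates long-chain fatty acids, differed by −1.97 from a CD level of 4.87.

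The pathway's regulators lay within 2-fold. Srebf1, which encodes SREBP1, was at 1.82 with CD and 1.32 with HFD+Ex, a difference of −0.50. Mlxipl, which encodes ChREBP, was at 6.58 and 5.91, a difference of −0.67. Thrsp, a lipogenic protein of fat and liver, was at 9.37 and 8.50, a difference of −0.87. All 3 were lower on each high fat array than on the CD array.

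Many members were also lower in the other high fat pools. With HFD against CD 13 were lower (background 3.08%), with a median of −1.17, and with HFD+PP against CD 14 were lower (background 3.05%), with a median of −1.51. All 3 comparisons share the CD array, so they are not independent. Between HFD+Ex and HFD directly, Fasn differed by 0.07, Acly by −0.22, Elovl6 by 0.14 and Me1 by −0.26, against −1.36 for Scd2. In mesenteric white fat, HFD+Ex against CD gave 9 lower members (background 4.1%) and 0 higher, with a median of −0.86. Fasn differed by −2.54 and Elovl6 by −3.77 there, and Scd2 by −0.66.

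**Figure D2:**
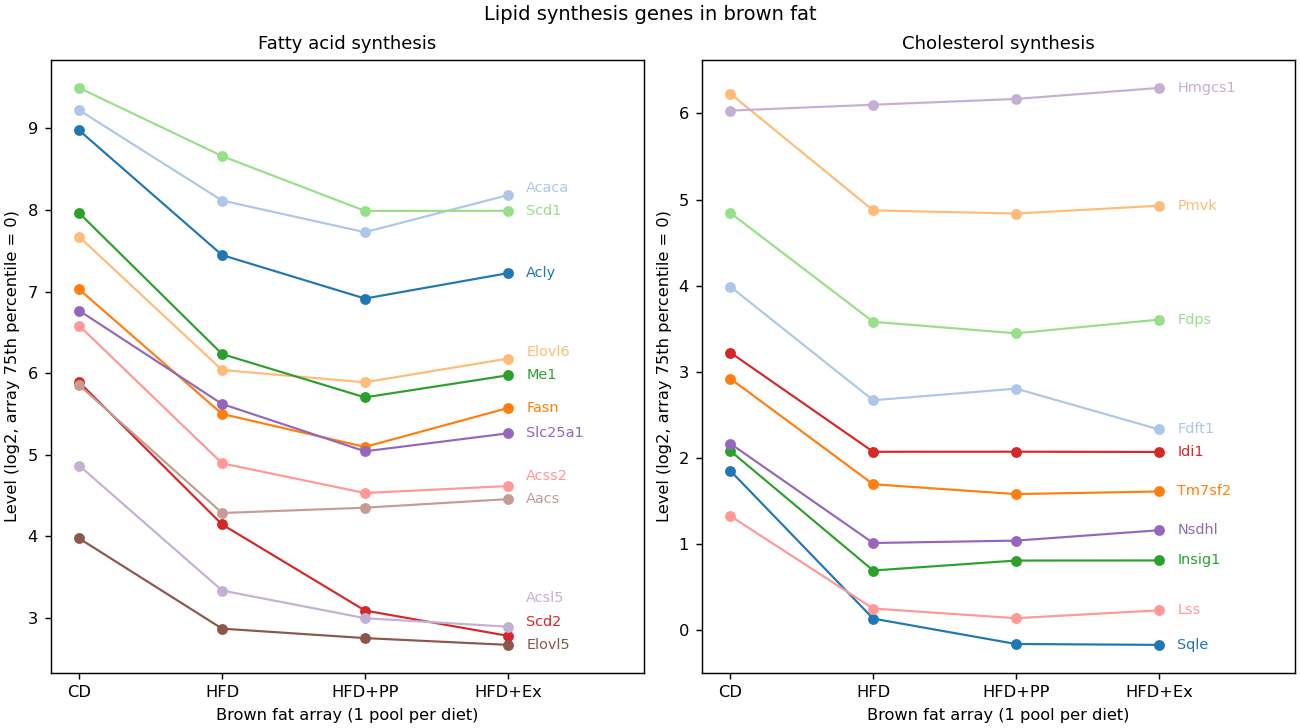
Levels of 12 fatty acid synthesis genes (left) and 10 cholesterol synthesis genes (right) on the 4 brown fat arrays (x axis, 1 pool per diet), in log2 with the array's 75th percentile at 0. Most lines drop from CD to the 3 high fat arrays, Scd2 from 5.89 to 2.78 and Sqle from 1.85 to −0.17, while Hmgcs1 lies between 6.03 and 6.30.

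Cholesterol synthesis genes were lower too, at a smaller median. Of 24 measured members 10 were at least 2-fold lower and 0 higher (background 2.4% and 2.7%), with a median of −0.77. Sqle, squalene epoxidase, was at 1.85 with CD, 0.14 with HFD, −0.16 with HFD+PP and −0.17 with HFD+Ex, a difference of −2.02 or 4.06-fold lower. Tm7sf2, a sterol reductase, differed by −1.31 and Pmvk, phosphomevalonate kinase, by −1.30. Fdft1, squalene synthase, differed by −1.66 from a CD level of 3.99, but by −0.52 as the median over its probes.

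Members of the same pathway were not lower throughout. Hmgcs1, HMG-CoA synthase, was at 6.03, 6.10, 6.17 and 6.30, a difference of 0.26. Srebf2, which encodes SREBP2, differed by 0.09. Insig1, an SREBP target that holds SREBP in the endoplasmic reticulum, differed by −1.27. HFD and HFD+PP against CD each had 11 lower members (background 3.08% and 3.05%), with medians of −0.76 and −0.73. In mesenteric white fat 0 of 24 members were called in either direction, with a median of −0.36. Across the scalings and probe rules tried in brown fat, between 7 and 10 members were lower and 0 higher.

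Promoter windows of these 2 lists were read for the letters CACGTG, the E-box that ChREBP and SREBP can bind, and TCACNCCAC, a form of the sterol element bound by SREBP, on both strands. The window was the 250 bases before a RefSeq start (GRCm38.p6). CACGTG stood in 3 of 17 fatty acid synthesis genes with a window and in 4 of 16 cholesterol synthesis genes. Over all 27025 genes with a window the share was 6.86%. TCACNCCAC stood in 1 of 17 and 1 of 16, against 1.22% of all genes. Lysosome genes, as another list, held CACGTG in 9 of 26, and 0 of 36 measured lysosome genes were called. A match is a run of letters and not a shown binding site. The 4 windows below are shown for genes whose values are given here, 3 of them at least 2-fold lower and Hmgcs1 not, with the matched letters in capitals.
Slc25a1 (difference −1.50; chr16:17928220-17928469, minus strand; CACGTG): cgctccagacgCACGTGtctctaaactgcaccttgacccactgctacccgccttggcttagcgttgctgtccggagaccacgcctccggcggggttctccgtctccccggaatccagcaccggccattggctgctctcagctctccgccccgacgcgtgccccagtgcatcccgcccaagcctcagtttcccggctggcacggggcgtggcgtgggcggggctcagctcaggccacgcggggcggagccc
Elovl5 (a fatty acid elongase, difference −1.30; chr9:77917115-77917364, plus strand; CACGTG): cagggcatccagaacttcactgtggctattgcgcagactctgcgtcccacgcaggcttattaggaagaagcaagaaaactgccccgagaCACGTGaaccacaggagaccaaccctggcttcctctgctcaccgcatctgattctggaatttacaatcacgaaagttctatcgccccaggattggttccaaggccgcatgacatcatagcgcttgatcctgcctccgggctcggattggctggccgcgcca
Insig1 (difference −1.27; chr5:28071162-28071411, plus strand; CACGTG): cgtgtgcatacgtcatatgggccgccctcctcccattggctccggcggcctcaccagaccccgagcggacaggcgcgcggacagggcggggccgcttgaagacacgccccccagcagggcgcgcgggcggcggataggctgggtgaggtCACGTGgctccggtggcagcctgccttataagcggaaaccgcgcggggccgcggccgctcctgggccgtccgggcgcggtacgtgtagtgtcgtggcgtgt
Hmgcs1 (difference 0.26; chr13:119690101-119690350, plus strand; TCACNCCAC): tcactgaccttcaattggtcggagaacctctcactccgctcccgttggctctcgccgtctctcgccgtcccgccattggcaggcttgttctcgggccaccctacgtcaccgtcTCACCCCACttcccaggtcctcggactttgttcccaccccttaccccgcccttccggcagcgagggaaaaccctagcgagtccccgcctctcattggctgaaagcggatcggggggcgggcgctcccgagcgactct
The lower genes shown held CACGTG and Hmgcs1 the other motif, so these windows do not contrast levels for a single motif. Mlxipl, within 2-fold at −0.67, also held CACGTG in a window.

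Sugar handling and fat storage genes were mostly within 2-fold. Of 28 measured genes of glucose uptake and glycolysis 1 was lower and 0 higher, with a median of −0.27. The called gene was Slc2a5, the fructose transporter GLUT5, at 4.46 with CD, 2.28 with HFD, 1.57 with HFD+PP and 2.27 with HFD+Ex, a difference of −2.19. In mesenteric fat Slc2a5 differed by −4.43. Slc2a4, the insulin-responsive glucose transporter GLUT4, differed by −0.68 from a CD level of 7.68. Of 16 triglyceride synthesis genes 1 was lower, Mogat2, a monoacylglycerol acyltransferase, at −1.06. Dgat2, which makes triglyceride, differed by −0.08, Pck1 by −0.23 and Gpam by 0.14.

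Among 28 genes of lipolysis and lipid uptake 1 was higher and 2 lower. Hcar2, the niacin receptor, differed by −1.58 and Hcar1, the lactate receptor, by −1.47, and both are receptors that restrain lipolysis. Npr3, the clearance receptor for natriuretic peptides, differed by 1.11. Lpl, lipoprotein lipase, differed by −0.11, Pnpla2, adipose triglyceride lipase, by −0.22, Plin1 by −0.24 and Plin2 by −0.27. The enzymes of the pathway lay within 2-fold. The called members were receptors, too few to set the list apart from all genes, of which 2.7% were higher and 2.4% lower. With normexp 1 member was higher and 1 lower, and with the authors' values 2 and 2.

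The thermogenic programme differed little between the 2 pools. Of 30 measured members 0 were higher and 2 lower (background 2.7% and 2.4%). The median was −0.10, and it lay between −0.10 and 0.08 over the alternatives tried. Ucp1 was at 9.97 with CD, 9.79 with HFD, 9.80 with HFD+PP and 10.15 with HFD+Ex, a difference of 0.18. Adrb3, the beta-3 adrenergic receptor, differed by 0.20, Dio2, which activates thyroid hormone, by 0.00, and Ppargc1a, the coactivator of mitochondrial genes, by −0.46. Prdm16, a regulator of brown fat identity, differed by −0.16. The 2 lower members were Elovl3, a fatty acid elongase of brown fat, at −1.43 from a CD level of 3.48, and Irf4, a transcription factor of the fasting and cold response, at −1.28 from 0.77. Both stood lower on all 3 high fat arrays than on the CD array.

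Mitochondrial genes lay close together. All 36 respiratory chain subunits were within 2-fold, from −0.42 to 0.08, with a median of −0.21 that turned to 0.05 with quantile normalization. In HFD against CD their median was −0.49 and in HFD+PP against CD −0.37. Of 29 fatty acid oxidation genes 0 were called, with a median of 0.02. Cpt1b, which carries fatty acids into mitochondria, differed by 0.33, Pdk4, which spares glucose, by −0.19, and Cox8b and Cox7a1, subunits of cytochrome oxidase, by −0.09 and 0.03.

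White fat and adipokine genes went both ways, with 3 of 28 measured members higher and 3 lower (background 2.7% and 2.4%). Lep, the satiety hormone leptin, was at −0.18 with CD, 2.02 with HFD, 1.06 with HFD+PP and 1.12 with HFD+Ex, a difference of 1.30. Nnat, neuronatin, an imprinted gene, differed by 1.91 and Mest, an imprinted gene that marks expanding fat, by 1.01. Retn, the adipokine resistin, was at 5.14, 3.58, 3.45 and 3.74, a difference of −1.40 that both of its probes gave. Orm1, an acute phase protein, differed by −1.35, and Hoxc8, a positional gene of white fat, by −1.08. Adipoq, the hormone adiponectin, was at 7.83 and 7.85, a difference of 0.01. In mesenteric fat Lep differed by 1.97, Mest by 2.28 and Retn by −0.07.

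**Figure D3:**
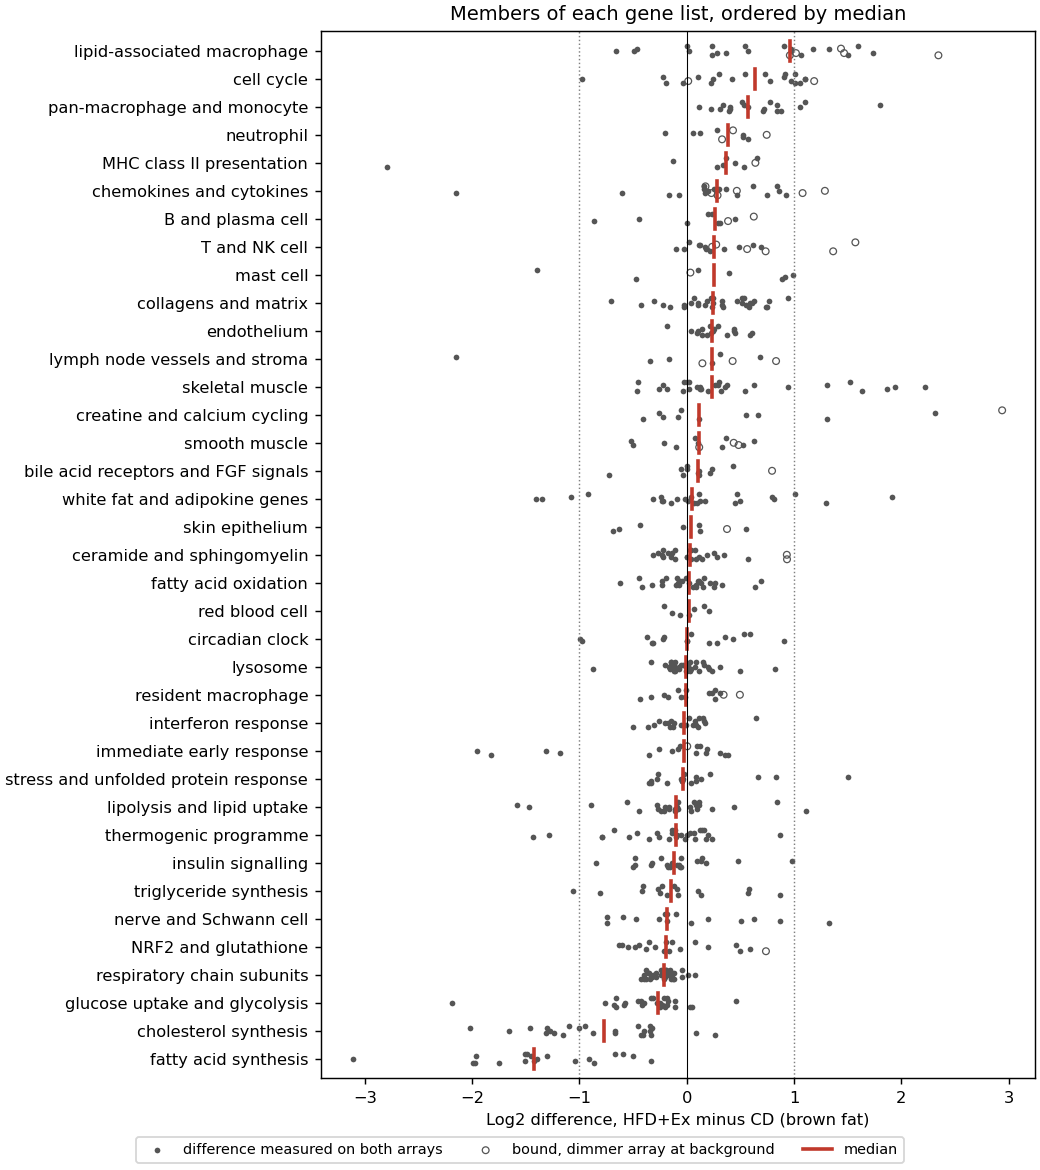
Log2 difference of each measured member, HFD+Ex minus CD in brown fat (x axis), for the gene lists with at least 8 measured members (y axis), ordered by their median in red; dotted lines mark 2-fold and open circles are bounds. Fatty acid synthesis (median −1.42) and cholesterol synthesis (−0.77) stand at the bottom and lipid-associated macrophage genes (0.96) at the top.

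Part of the genes of lipid-associated macrophages, cells that take up lipid in enlarged fat, were higher in the HFD+Ex pool. Of 25 measured members 10 were higher (background 2.7%), 0 lower and 15 within 2-fold, with a median of 0.96. For the 20 members above background on both arrays the median was 0.56, with 6 higher. Trem2, the lipid receptor that defines these cells, was at −0.54 with CD, 2.80 with HFD, 1.82 with HFD+PP and 0.96 with HFD+Ex, a difference of 1.50 or 2.84-fold higher. Gpnmb, a glycoprotein of lipid-laden macrophages, was at −1.15, 2.27, 1.56 and 0.59, a difference of 1.74. Itgax, the integrin CD11c, was at −2.16, 1.20, 0.19 and −0.57, a difference of 1.60. For each of these genes the order was CD, HFD+Ex, HFD+PP and HFD from lowest to highest.

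Atp6v0d2, a proton pump subunit, was not above background on the CD array and was at least 5.08-fold higher with HFD+Ex. Its level of −1.97 was set against the probe's own CD signal of −4.31, above that array's floor of −4.70. Atp6v0d2 stood at 0.10 with HFD and −0.94 with HFD+PP. Mmp12, the macrophage elastase, was at least 2.76-fold higher by its brightest probe, but differed by −0.10 as the median over its probes. With normexp 4 members of the list were higher and with the authors' values 14. The 4 members below 0 were Hvcn1, a proton channel, at −0.65, the lysosomal proteases Ctsb and Ctsd at −0.49 and −0.46, and Ctsl, another such protease, at −0.00. The summed linear level of the 25 members, relative to the 75th percentile, was 873.2 with CD, 934.0 with HFD, 857.2 with HFD+PP and 801.3 with HFD+Ex, so the sum was lower with HFD+Ex than with CD while the median was higher. On the CD array 20 of the 25 were above background, and all 25 on the other 3 arrays. In mesenteric fat 9 of 25 members were higher (background 2.5%), with a median of 0.57, and Trem2 differed by 1.58. In HFD against CD of brown fat 15 were higher (background 6.26%), with a median of 2.12, and in HFD+PP against CD 14 (background 4.01%), with a median of 1.35.

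Broad macrophage and monocyte markers lay above 0 in all 19 members, with a median of 0.58 and 3 at least 2-fold higher (background 2.7%). Cd68, a lysosomal macrophage protein counted in the lipid-associated list, was at 1.54 with CD, 3.97 with HFD, 3.32 with HFD+PP and 2.50 with HFD+Ex, a difference of 0.97. Adgre1, the marker F4/80, differed by 0.84. Itgam, the integrin CD11b, differed by 1.80 by its brightest probe, but another of its 3 probes differed by −0.29. The summed linear level of the 19 markers, relative to the 75th percentile, was 51.5 with CD and 80.2 with HFD+Ex, against 151.5 with HFD and 105.2 with HFD+PP. All 19 were above background on every brown fat array. In a bulk pool more cells of a type and more RNA per cell cannot be told apart.

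Markers of resident macrophages stood at about the same level on both arrays. Of 15 measured members 0 were called, with a median of −0.00 and a range of −0.44 to 0.50. Mrc1, the mannose receptor, was at 0.58 with CD, 1.95 with HFD, 1.46 with HFD+PP and 0.79 with HFD+Ex. Folr2, a folate receptor, was at 0.71, 2.04, 1.59 and 0.70. Their HFD+Ex values lay beside the CD values and below both other high fat arrays.

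**Figure D4:**
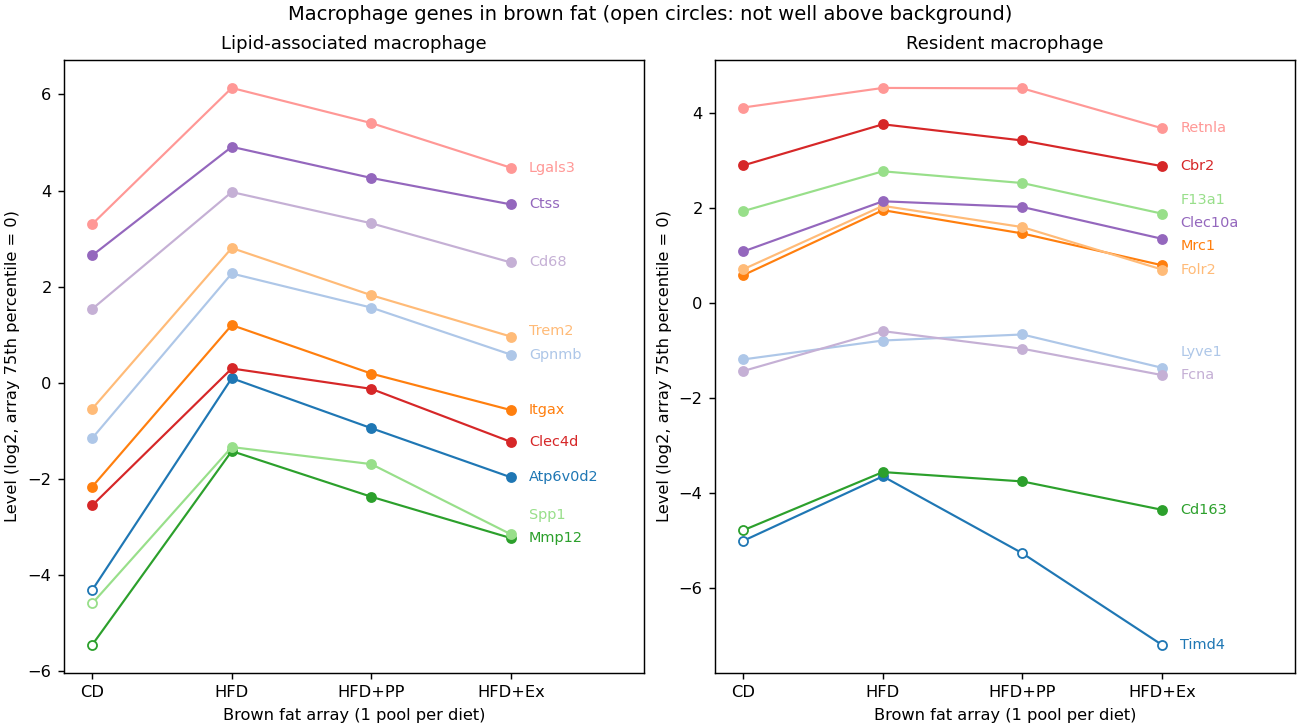
Levels of 10 lipid-associated (left) and 10 resident (right) macrophage genes on the 4 brown fat arrays (x axis, 1 pool per diet), in log2 with the array's 75th percentile at 0; open circles were not well above background. Trem2 and Gpnmb peak with HFD at 2.80 and 2.27 and reach 0.96 and 0.59 with HFD+Ex, while Mrc1 and Folr2 return to 0.79 and 0.70.

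In the other immune lists the higher calls were all bounds. Among 25 measured chemokines and cytokines 2 were higher and 1 lower (background 2.7% and 2.4%). Ccl3 and Ccl4, which attract monocytes, were at least 2.11-fold and 2.44-fold higher, and Cxcl13, which attracts B cells, differed by −2.15. Ccl2, the main monocyte attractant, was at −0.80 with CD, 1.72 with HFD, 1.28 with HFD+PP and −0.05 with HFD+Ex, a difference of 0.75. Tnf was not above background on any brown fat array. Among 18 T and NK cell genes 2 were higher, both as bounds: Il7r, the interleukin 7 receptor, by at least 2.97-fold and Cd28, a costimulatory receptor, by at least 2.58-fold. Cd3e, part of the T cell receptor complex, differed by −0.10. With normexp 0 members of either the chemokine or the T and NK cell list were higher. In the mast cell list Kit, the stem cell factor receptor, differed by −1.39, while the mast cell proteases Cpa3 and Cma1 differed by 0.89 and 0.99.

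Ciita, the master activator of MHC class II genes, was among the lowest genes of the comparison, at −0.67 with CD, −3.14 with HFD, −3.98 with HFD+PP and −3.47 with HFD+Ex, a difference of −2.79. The class II genes themselves lay slightly above 0. H2-Aa differed by 0.28, H2-Ab1 by 0.34, H2-Eb1 by 0.45 and Cd74, the invariant chain, by 0.36. Of 9 measured members of the list 0 were higher and 1, Ciita, lower. Interferon response genes had 0 of 22 called, with a median of −0.03.

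Cell cycle genes were higher in part. Of 23 measured members 6 were higher and 0 lower (background 2.7% and 2.4%), with a median of 0.64. Mki67, the proliferation marker Ki-67, was at −1.16 with CD, 0.90 with HFD, 0.23 with HFD+PP and −0.15 with HFD+Ex, a difference of 1.01. Plk1, a mitotic kinase, differed by 1.11 and Cdk1 by 1.06, and Ccna2, cyclin A2, was 2.14-fold higher. Top2a, a topoisomerase of dividing cells, was at least 2.28-fold higher. Pcna, a replication clamp, differed by −0.22. All 6 lay between 1.01 and 1.19, close to the threshold, and the count ran from 0 with normexp to 9 with the authors' values. Macrophage markers were higher on the same array, as given above, and their part in the result was not tested. In HFD against CD 13 members were higher (background 6.26%) and in HFD+PP against CD 10 (background 4.01%). In mesenteric fat 0 were called (background 2.5% higher and 4.1% lower), with a median of −0.67.

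Collagen and matrix genes had 0 of 34 measured members called, with a median of 0.25. Col1a1 and Col3a1, the main fibrillar collagens, differed by 0.58 and 0.61, and Timp1, a protease inhibitor raised in inflamed tissue, by 0.34. In HFD against CD 13 of 33 were higher (background 6.26%), with a median of 0.85. In mesenteric fat 12 of 34 were higher with HFD+Ex against CD (background 2.5%), also at a median of 0.85. Col1a1 differed by 1.02 there.

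A set of muscle genes was higher with HFD+Ex. Brown fat shares a lineage with skeletal muscle and lies against it in the body. Of 30 skeletal muscle markers 6 were higher and 0 lower (background 2.7% and 2.4%), with a median of 0.23. Myl2, the regulatory light chain of slow and cardiac muscle, was at −0.94 with CD, 1.33 with HFD, 1.27 with HFD+PP and 1.28 with HFD+Ex, a difference of 2.22 or 4.67-fold higher. Tnni1 and Tnnt1, the slow troponins, differed by 1.87 and 1.52, and Myh7, the slow myosin, by 1.63. Mb, myoglobin, differed by 1.31. Myh1, a fast myosin, differed by 1.94. On all 4 slow-fibre genes the CD array stood below each high fat array.

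The other 24 muscle markers lay within 2-fold, and 23 of all 30 markers lay above 0. Acta1, skeletal actin, was at 4.08 with CD, 3.93 with HFD, 4.97 with HFD+PP and 4.40 with HFD+Ex, a difference of 0.32. Ckm, muscle creatine kinase, differed by 0.13. Among the markers below 0 were the fast-fibre genes Myh4, Actn3 and Pvalb, at −0.46, −0.46 and −0.26. The summed linear level of all 30 markers was 278.1 with CD and 275.4 with HFD+Ex, against 216.3 with HFD and 383.9 with HFD+PP. All 30 were above background on every brown fat array, so muscle RNA was detected in each pool. Whether the amount or kind of attached muscle differed between pools was not tested beyond these sums.

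Genes of creatine and calcium cycling, which can make heat without Ucp1, had 3 of 11 members higher (background 2.7%). Sln, sarcolipin, which uncouples the calcium pump of muscle, was at least 7.67-fold higher, at −1.36 with HFD+Ex and not above background with CD. It stood at −1.87 with HFD and −1.86 with HFD+PP. Ryr2, the ryanodine receptor calcium channel, was at −3.54, −1.45, −1.22 and −1.23, a difference of 2.31. Ckb, creatine kinase B, was at 0.82, 1.80, 2.21 and 2.13, a difference of 1.31. Atp2a2, the calcium pump SERCA2, differed by 0.56. Slow muscle markers were also higher on the same array, and whether attached muscle had a part in these values was not tested.

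**Figure D5:**
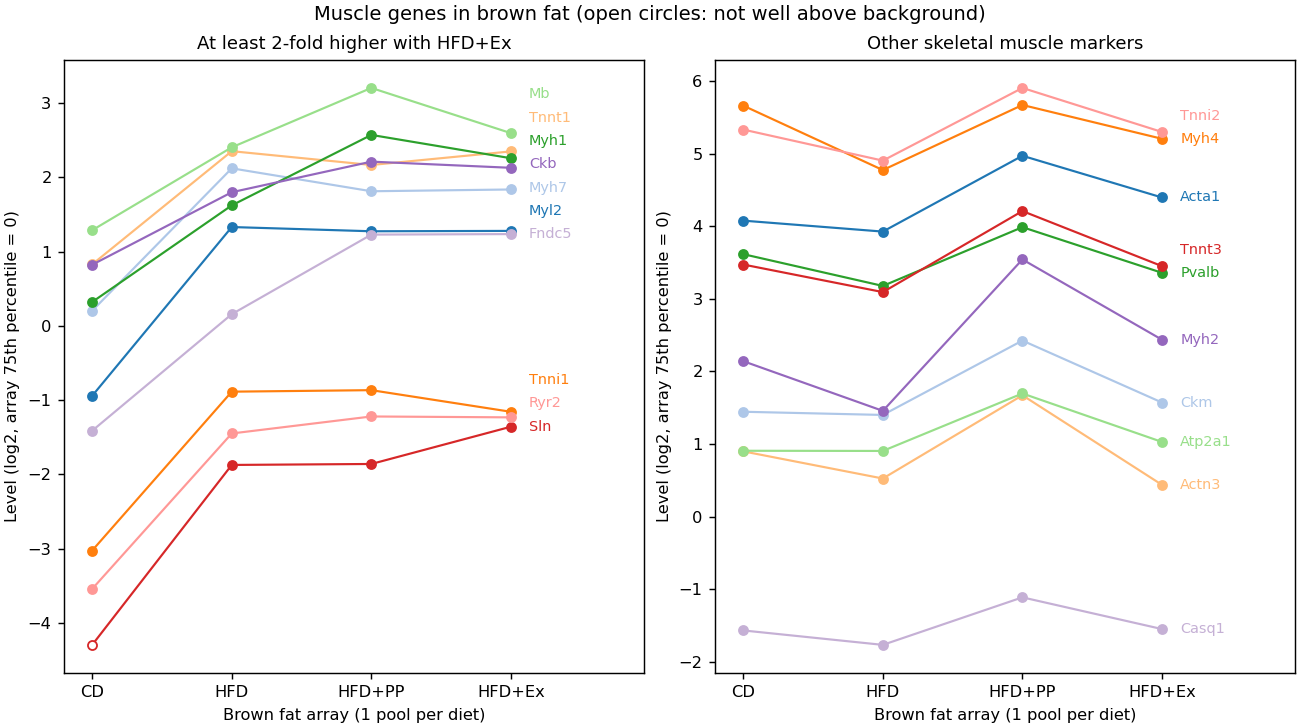
Levels of 10 muscle and calcium cycling genes at least 2-fold higher with HFD+Ex than with CD (left) and of 10 other muscle markers (right) on the 4 brown fat arrays (x axis, 1 pool per diet), in log2 with the array's 75th percentile at 0; open circles were not well above background. The left genes are lowest with CD, Myl2 at −0.94, while the right genes peak with HFD+PP, Acta1 at 4.97.

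The highest genes measured on both arrays held several whose levels were highest on the HFD+PP and HFD+Ex arrays. Fndc5, the precursor of irisin, was at −1.41 with CD, 0.16 with HFD, 1.23 with HFD+PP and 1.24 with HFD+Ex, a difference of 2.65. Without a supplement, HFD already differed from CD by 1.57 for Fndc5. Pon1, the paraoxonase of HDL, was at 1.14, 1.92, 3.39 and 3.34, a difference of 2.20. Sgk2, a serum- and glucocorticoid-regulated kinase, was at 0.21, 0.53, 2.56 and 2.44, a difference of 2.23. Cyp2b9, a cytochrome P450, was at −1.97, −1.65, 0.78 and 0.02, a difference of 1.99. For Pon1, Sgk2 and Cyp2b9 the 2 supplement arrays lay apart from CD and HFD. Directly against HFD, HFD+Ex differed by 1.43 for Pon1, 1.91 for Sgk2 and 1.68 for Cyp2b9. Genes here and in the next paragraph were picked for an HFD+Ex level far above CD. Differences from HFD reuse that HFD+Ex array, so they are not independent of the choice.

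Receptors stood among the highest too. Ror2, a receptor for Wnt5a, was at −3.42, −1.80, −1.10 and −0.69 in the order CD, HFD, HFD+PP and HFD+Ex, and its difference of 2.72 was the largest measured on both arrays. Cnr1, the cannabinoid receptor CB1, was at −2.85, −2.51, −1.48 and −0.73, a difference of 2.12. Rorb, an orphan nuclear receptor, differed by 2.02. Pifo, a gene of primary cilia, was at −3.07, −3.53, −3.67 and −1.08, so HFD+Ex alone stood up. Gm3893, 1700018F24Rik and Tmem82 complete the 15 highest, at 2.29, 2.15 and 1.88, beside Ryr2, Myl2, Myh1 and Nnat.

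The 15 lowest genes measured on both arrays were lower in all 3 high fat pools, with Ces1e as an exception. They were picked for a CD level far above HFD+Ex, and all 3 comparisons share that CD array, so they are not independent. Klk1b26 was not above background with HFD or HFD+PP, Gm10791 with HFD and 1700011M02Rik with HFD+PP. The predicted gene 1700018G05Rik was at 1.70 with CD, −1.32 with HFD, −3.15 with HFD+PP and −3.18 with HFD+Ex, a difference of −4.88. Foxd3, a transcription factor of the neural crest, was at −1.31 with CD and −4.45 with HFD+Ex, and was not above background on the other 2 arrays. Recql4, a DNA helicase, differed by −3.09 and Nrcam, a neuronal adhesion molecule, by −2.71. Ces1e, a carboxylesterase, was at −1.99, −4.50, −2.14 and −4.85, so it stayed near its CD level with HFD+PP. Slc23a3 differed by −3.75, Cldn22, a claudin, by −3.02, Spata22, a meiosis gene, by −2.87 and Klk1b26, a kallikrein, by −2.86. The others were 1700011M02Rik, Gm9112 and Gm10791, beside Scd2, Scd3 and Ciita.

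Some genes were seen on 1 array of the 4 only. Of the higher genes 50 were above background on the HFD+Ex array alone, and of the lower genes 116 on the CD array alone. The largest bound belonged to Olfr1441, an olfactory receptor, at 0.27 with HFD+Ex and at least 31.4-fold higher. 4930522O17Rik, Psg22, a pregnancy-specific glycoprotein, and Macc1 were likewise above background with HFD+Ex alone. Plg, plasminogen, made in liver, was at −0.55 with HFD+Ex and −2.53 with HFD, and at least 16.7-fold higher. In the other direction Olfr1497 was at −0.80 with CD and at least 22.7-fold lower. Dpep3, a dipeptidase of the testis, Armh1, Vmn2r69, a vomeronasal receptor, and Stpg1 were also above background with CD alone. Each such value rests on a single array.

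The immediate early response, genes induced within minutes of a stimulus, had 4 of 18 measured members lower and 0 higher (background 2.4% and 2.7%). Egr1 was at 1.71 with CD, 0.38 with HFD, 0.17 with HFD+PP and −0.25 with HFD+Ex, a difference of −1.96. Fos was at −1.45, −1.79, −2.03 and −3.28, a difference of −1.82, and HFD+Ex was the lowest array for both. Nr4a2 differed by −1.31 and Nr4a1 by −1.18. Jun, Fosb and Dusp1 differed by 0.10, 0.18 and −0.14, so the list did not move as one. Of 17 clock genes 0 were called. Dbp, Nr1d1 and Arntl differed by 0.21, 0.36 and −0.32.

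The study's title names bile acids and ceramides. Of 12 measured bile acid receptor and FGF signal genes 0 were called (background 5.1% either way), and Gpbar1, the bile acid receptor TGR5, differed by 0.11. Of 26 measured ceramide and sphingomyelin genes 0 were called, with a median of 0.03. Sptlc2, a subunit of serine palmitoyltransferase, was at −1.63 on both arrays, a difference of −0.00. Smpd3, a neutral sphingomyelinase, was at −2.72 with CD, −1.02 with HFD, −2.06 with HFD+PP and −2.37 with HFD+Ex, a difference of 0.35. Cers6, a ceramide synthase, was above background with HFD only. Of 36 lysosome, 22 insulin signalling and 19 NRF2 and glutathione genes, 0 were called. In lists this short a count of 0 lies near the 5.1% of all genes and does not set them apart. Gdf15, a stress hormone, was the 1 higher gene of 19 in stress and unfolded protein response, at 1.51.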

How the data were processed

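RNA pooled from 7 mice per group was measured on 1-colour Agilent arrays, 1 per tissue and diet, per the labels. Per the file headers, the authors read the scans with protocol GE1_1105_Oct12 of Agilent Feature Extraction 11.5.1.1, and the deposited intensity per spot is background-subtracted and not scaled between arrays. The series matrix deposited by the authors holds the same intensity times 1 factor per array, on a linear scale, not centred; in brown fat the median of its column was 55.2 for CD, 73.6 for HFD, 67.5 for HFD+PP and 71.8 for HFD+Ex, and how the factor was set is not given in the sources used here.

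Control and flagged spots were left out, spots of a probe were averaged, and log2 intensity minus the array's 75th percentile was used. Probes were named through accessions in a RefSeq gene table (GRCm38.p6); 28026 of 55681 matched, giving 21154 genes, 5681 with several probes. The brightest probe over the arrays stood for a gene. A gene was measured when well above background on at least 1 array of a comparison. For a bound, the dimmer array counted at its floor, which is its lowest detected signal or, if higher, that of the probe itself. Floors were −4.70 (CD) and −5.30 (HFD+Ex) log2. Percentages of calls are over all measured genes; list medians are over members with a difference.

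The members and the 38 gene lists were chosen with earlier results of these data known. Of 828 list entries 17 had no gene on the array. The text names 50 fixed genes, the 15 highest and 15 lowest genes above background on both arrays, up to 5 bounds per direction and up to 5 called members per list. Other list members are named to show a list's range, chosen after their values were seen. Some genes that the rule names are left out of the text.

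Alternatives were normexp (limma 3.58.1, offset 50), quantile normalization, scaling to probes above background on all 4 brown fat arrays, the authors' values, other filters, the median over probes, and leaving out genes of other cell types. Normexp used median spot signals, since the files used here hold no mean signal column. Scripts were tested on simulated data. Python 3.11.15 and R 4.3.3 were used. A single array per group allowed no test.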

Additional observations from a re-analysis of the deposited data

Results flagged for a closer look

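The genes below were at least 2-fold one way between HFD+Ex and CD in brown fat and at least 2-fold the other way in another tissue. Each value is 1 pair of arrays. Where a value is called a bound, the dimmer of its 2 arrays lay at background. The difference between tissues was not tested.

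Pon1 was higher in brown fat (2.20 log2) and lower in ileum (−1.64, a bound) and colon (−2.22). Plg, a bound of 4.07 in brown fat, was lower in ileum (−1.69) and colon (−3.52, also a bound). Gldn was higher in brown fat (1.33) and lower in mesenteric fat (−1.65) and liver (−1.61), both of them bounds. Cd28 was higher in brown fat (1.36, a bound) and lower in mesenteric fat (−1.45), and Macc1 was higher (3.25, a bound) and lower in mesenteric fat (−1.04). Olfr1441 was higher in brown fat (4.97, a bound) and lower in liver (−1.10).

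Slc2a5 was lower in brown fat (−2.19) and higher in ileum (1.24). Retn was lower in brown fat (−1.40) and higher in liver (1.08, a bound). Hoxc8 was lower in brown fat (−1.08) and higher in mesenteric fat (1.04). Lrrn4 was lower in brown fat (−1.69) and higher in ileum (1.26), and 1700018G05Rik was lower in brown fat (−4.88) and higher in colon (3.07, a bound).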

How the results depend on the processing

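The 428 higher and 381 lower genes became 68 and 132 with normexp, 194 and 239 when both arrays had to be above background, and 1608 and 1477 with no filter on dim probes. The authors' values gave 692 higher. The counts stayed within 1.5 times under quantile normalization, scaling to bright probes, the median over probes and the removal of other cell types' genes. The median of lipolysis and lipid uptake turned to 0.15 with quantile normalization and 0.081 with the authors' values. That of the immediate early response turned to 0.069 with scaling to bright probes, 0.15 with the authors' values and 0.013 with no filter. Medians of lists with fewer calls changed sign too. With quantile normalization the thermogenic programme turned to 0.035, triglyceride synthesis to 0.061 and respiratory chain subunits to 0.054. With the authors' values the thermogenic programme turned to 0.080, triglyceride synthesis to 0.031 and insulin signalling to 0.066. Further lists near 0 did so as well. Mmp12 turned to −0.10 with the median over probes. Of 1164 list medians and gene values recomputed, 1106 kept their sign. Of the 660 that belonged to a value of at least 1 log2, 659 kept it and 615 stayed at least 1 log2. Many of these genes were picked for the size of their difference. Alternatives that only change the filter reuse that difference, so a measured called gene could not fall below 2-fold there. Over all called genes, normexp kept 192 of 802 at least 2-fold the same way, and quantile normalization 657 of 809. Scaling to bright probes kept 761, the authors' values 732 and the median over probes 749. The cause of these changes was not tested. Requiring both arrays above background leaves out every bound by construction, 234 of the higher and 142 of the lower calls. Of 70 called genes with several probes above background on both arrays, 10 had a probe of opposite sign. No paired analysis was possible because each group was 1 array. No array could be left out for the same reason. Signal near background limits the dim genes, and every bound is such a value.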
